A study of Mus musculus with 24 samples.

Results

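The 9 genes described here are Ankrd37, Bnip3, Bnip3l, Ddit4, Ndrg1, Mxi1, Higd1a, Fam162a and Ero1l. They were chosen by symbol as known hypoxia-induced genes outside glycolysis and are 9 of the 24043 genes in the authors' deposited expression table. All 9 passed the filter on low values, which asked for a group mean of 1 FPKM or more in any group and left 12389 genes for testing. RNA was sequenced from C2C12 cells, an established mouse myoblast line that fuses into myotubes when serum is lowered. Normoxic growth medium was DMEM with 10% fetal bovine serum at 21% oxygen, and hypoxic growth medium was the same at 2% oxygen. Normoxic and hypoxic differentiation medium were DMEM with 2% horse serum and an insulin, transferrin and selenium supplement, at 21% and 2% oxygen. Each of these 4 groups had 2 libraries, replicates A and B, which the design text calls biological. No genetic change is named for any group, the length of the low oxygen exposure is not given, and the results come from 1 immortalised line.

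Hypoxia-inducible factors (HIF) are made of an oxygen-sensitive alpha subunit and the stable partner ARNT. When oxygen is present, EGLN prolyl hydroxylases mark the alpha subunit and the VHL ubiquitin ligase removes it. When oxygen is scarce, the alpha subunit persists and the dimer binds a short core sequence near its target genes. Outside glycolysis these targets include genes that limit mitochondrial mass and respiration, growth signalling and translation. BNIP3 and its relative BNIP3L (NIX) sit in the outer mitochondrial membrane and recruit LC3-family proteins, which brings mitochondria into autophagosomes. HIGD1A is an inner membrane protein associated with cytochrome oxidase, and FAM162A is a mitochondrial protein linked to hypoxic cell death. DDIT4 (REDD1) restrains the growth kinase complex mTORC1, and MXI1 binds MAX in place of MYC. NDRG1 is a cytoplasmic stress-response protein, ERO1L is the oxidase that passes electrons from disulfide isomerases to oxygen in the endoplasmic reticulum, and ANKRD37 is a small ankyrin repeat protein.

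The core sequence bound by HIF is ACGTG or GCGTG. Because the 9 genes rose together at low oxygen, the 250 bases upstream of their annotated starts were searched for these letters on both strands. RefSeq promoter sequences (build GRCm38.p6) were matched for 7 of the 9 genes. Bnip3l and Ndrg1 were not matched. Each of the 7 had at least 1 match at 1 or more of its starts. A match was found in 38.6% of all 32851 promoters listed and in 63.84% of the 9178 with at least 60% G and C. Windows at matched starts of the 7 genes held 60% to 80.8% G and C, against a median of 52.4% over all promoters. The part of base composition in the matches was not tested. Stretches that hold matches, chosen to show at least 1 per gene, are printed 5′ to 3′ on the gene's strand, with the core in capitals. A core on the opposite strand reads CACGT or CACGC.
Bnip3, chr7:138909522-138909638, minus strand: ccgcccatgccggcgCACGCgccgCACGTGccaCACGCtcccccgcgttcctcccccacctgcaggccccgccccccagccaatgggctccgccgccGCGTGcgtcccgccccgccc
Fam162a, chr16:36071562-36071657, minus strand: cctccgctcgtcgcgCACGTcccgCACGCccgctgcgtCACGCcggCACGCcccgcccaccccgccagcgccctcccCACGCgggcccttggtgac
Ero1l (Ero1a in RefSeq), chr14:45318616-45318715, minus strand: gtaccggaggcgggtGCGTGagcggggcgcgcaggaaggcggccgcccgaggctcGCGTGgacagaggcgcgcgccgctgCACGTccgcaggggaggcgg
Ddit4, chr10:59951866-59951972, minus strand: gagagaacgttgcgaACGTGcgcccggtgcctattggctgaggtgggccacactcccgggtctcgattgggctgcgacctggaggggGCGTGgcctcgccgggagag
Higd1a, chr9:121857843-121857881, minus strand: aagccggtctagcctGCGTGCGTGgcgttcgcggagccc
Ankrd37, chr8:45999851-45999866, minus strand: gtgtttgggtACGTGa
Mxi1, chr19:53329337-53329361, plus strand: tcggcacccgACGTGcactggcggg

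The Bnip3 stretch held 5 matches within 117 bases, and 2 of them overlap in the palindrome CACGTG, which 6.02% of all promoters had. This palindrome is also the E-box that MYC and MXI1 family dimers bind with MAX. Fam162a had 5 matches in the 96 bases next to its start, and in Higd1a 2 copies of GCGTG overlap by 1 base. The last base of the Ankrd37 match shown lies 2 bases upstream of the start, and 3 more matches of Ankrd37 lie 148 to 241 bases upstream. The Mxi1 match shown belongs to the second of its 3 annotated starts, and the third has another ACGTG 21 to 25 bases upstream. Fam162a has a further GCGTG 209 to 213 bases upstream. The Higd1a stretch also lies within the RefSeq gene Gm47112, and the Ankrd37 and Mxi1 stretches lie within RefSeq's outer bounds of those genes. A match to a core of 5 letters is a description of the sequence and not a measured binding site.

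Relative depth, read from the step between low values, ran from 0.633 to 1 of the deepest library, and 14917 to 15672 genes were above 0 per library. The SD of the log2 ratio of replicate A to B over genes above 1 FPKM was 0.18 to 0.27 in 3 groups and 0.51 in hypoxic differentiation medium, whose replicates therefore stand apart. Myotube markers (10 genes, summed) were at 14098 and 14474 FPKM in normoxic differentiation medium and between 4.91 and 50.0 FPKM in the other 6 libraries (at most 25.4 FPKM in hypoxic differentiation medium). The hypoxic differentiation libraries thus lacked the myotube marker levels of their normoxic counterparts. Myoblast markers (5 genes) summed to 455.2 to 803.5 FPKM at 21% oxygen and 59.1 to 119.3 FPKM at 2%. Cell cycle markers (12 genes) summed to 156.4 FPKM in replicate A and 468.7 FPKM in replicate B of hypoxic differentiation medium, and 12 of 12 were higher in B. Their range was 122.6 to 125.9 FPKM in normoxic differentiation medium, 215.3 to 240.9 in hypoxic growth medium and 353.4 to 367.2 in normoxic growth medium. Endothelial and adipocyte markers (4 genes each) summed to at most 0.520 and 0.133 FPKM. The leukocyte list (4 genes) summed to 1.90 to 3.57 FPKM in 6 libraries and to 25.8 and 42.8 FPKM in hypoxic differentiation medium, almost all of it from the lysosomal gene Cd68 (25.8 and 42.8 FPKM), with Cd3e listed at 0 in all 8 libraries.

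The first question was how low oxygen alters these genes in proliferating cells. In growth medium all 9 rose at 2% oxygen, by fitted log2 changes of 1.68 to 5.29 (median 3.17, against -0.14 over all tested genes). Adjusted p-values (limma, Benjamini-Hochberg over all tested genes) were between 1.32e-05 and 0.000336. Of all tested genes, 41.4% were called in either direction (13.5% higher and 28% lower), and 4.31% were called higher with a log2 change of at least 1, which all 9 genes reached. The libraries of all 9 did not overlap between oxygen levels, as was so in this direction for 27.2% of tested genes. In bulk RNA a change in the number of expressing cells and a change in RNA per cell cannot be told apart. Summed over the 9 genes, the level went from 461.2 and 475.8 FPKM to 5025 and 4956 FPKM in replicates A and B. That was 0.0877% and 0.0991% of all FPKM at 21% oxygen and 0.966% and 0.928% at 2%.

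**Figure D1:**
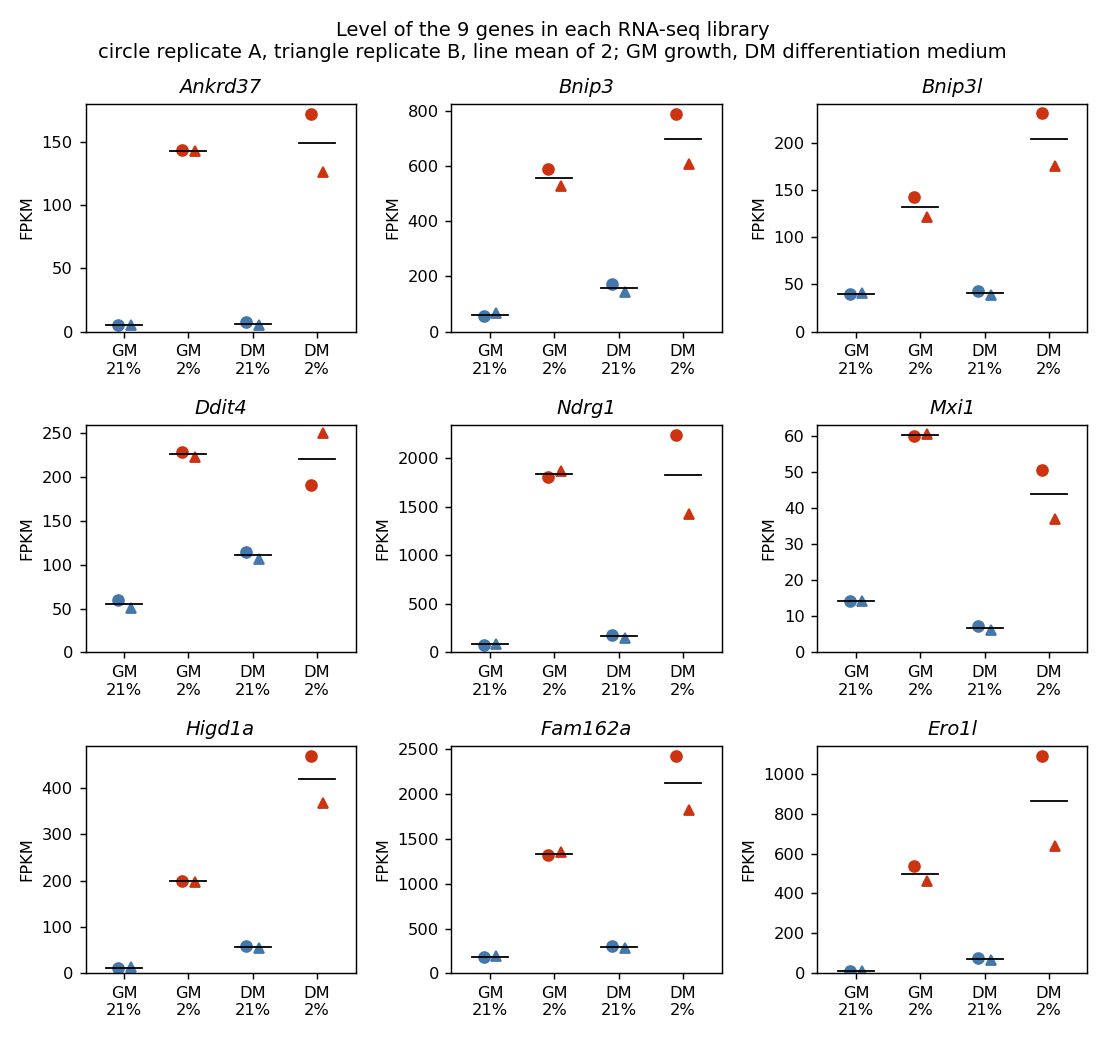
FPKM of each gene (vertical axis, linear from 0, scaled per gene) in the 8 libraries, in growth (GM) and differentiation medium (DM) at 21% (blue) and 2% (red) oxygen, with circles for replicate A, triangles for replicate B and lines for the mean of 2. For all 9 genes both hypoxic libraries lie above both normoxic libraries of the same medium, and the hypoxic differentiation replicates lie furthest apart, as for Ndrg1 at 2237 and 1422 FPKM.

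Among the mitochondrial genes, the mitophagy receptor gene Bnip3 was at 56.2 and 66.5 FPKM (replicates A and B) in normoxic growth medium and at 589.5 and 527.6 FPKM in hypoxic growth medium. In differentiation medium it was at 172.9 and 142.2 FPKM in normoxia and at 791.0 and 608.1 FPKM in hypoxia. The order of the 4 groups was therefore normoxic growth, normoxic differentiation, hypoxic growth and hypoxic differentiation medium, with no overlap between neighbours. Hypoxia raised Bnip3 by 3.17 ± 0.16 (SE) on the log2 scale in growth medium (adjusted p 5.98e-05) and by 2.14 ± 0.16 in differentiation medium (adjusted p 4.99e-05).

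Bnip3l was at 39.9 and 40.7 FPKM in normoxic growth medium and 43.4 and 38.4 FPKM in normoxic differentiation medium, and these groups overlap. It reached 142.5 and 121.5 FPKM in hypoxic growth medium and 231.6 and 175.3 FPKM in hypoxic differentiation medium, 3.28 and 4.98 times the normoxic means. Bnip3l thus had a normoxic level that was alike in both media within the spread of its libraries, whereas Bnip3 was 2.57 times higher in normoxic differentiation than in normoxic growth medium. In growth medium its rise of 1.68 ± 0.15 was the smallest of the 9 fitted changes, and in differentiation medium it rose by 2.28 ± 0.15.

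Higd1a had normoxic levels of 11.2 and 12.8 FPKM in growth medium and 59.2 and 54.2 FPKM in differentiation medium. In hypoxia it was at 199.6 and 197.9 FPKM in growth medium and at 468.6 and 367.8 FPKM in differentiation medium. No neighbouring groups overlap. Fam162a was the most abundant of the 9 in 3 of the 4 groups. Its values in normoxia were 184.2 and 188.6 FPKM in growth medium and 310.7 and 286.8 FPKM in differentiation medium. In hypoxia they were 1319 and 1352 FPKM and 2427 and 1818 FPKM, and the hypoxic differentiation mean ranked 27 of 12389 genes. Fam162a rose by almost the same factor in both media, 7.16 in growth and 7.10 in differentiation medium.

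Ddit4, the mTORC1 restrainer, was at 59.2 and 51.2 FPKM in normoxic growth medium and at 228.0 and 222.9 FPKM in hypoxic growth medium. It was at 114.8 and 106.2 FPKM in normoxic and 191.1 and 249.5 FPKM in hypoxic differentiation medium, so the hypoxic groups of the 2 media overlap. Its rise in hypoxia was 2.01 ± 0.14 in growth medium (adjusted p 0.000147) and 0.98 ± 0.14 in differentiation medium (adjusted p 0.000841), the smallest of the 9 in that medium. Mxi1, the MYC antagonist, was the 1 gene of the 9 whose lowest level was in normoxic differentiation medium, at 7.30 and 6.34 FPKM, below 14.3 and 14.4 FPKM in normoxic growth medium. It reached 59.8 and 60.4 FPKM in hypoxic growth medium and 50.5 and 37.1 FPKM in hypoxic differentiation medium, and no neighbouring groups overlap.

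Ndrg1 was at 80.7 and 83.8 FPKM in normoxic growth medium and at 1806 and 1869 FPKM in hypoxic growth medium, a ratio of means of 22.3. In differentiation medium it was at 179.9 and 149.5 FPKM in normoxia and 2237 and 1422 FPKM in hypoxia, a ratio of 11.1. Its hypoxic level in differentiation medium spanned its hypoxic level in growth medium, and both ranked among the 51 highest of 12389 genes. The oxidase gene Ero1l had the highest ratio of highest to lowest group mean of the 9 (73.1), from 10.5 and 13.1 FPKM in normoxic growth medium to 1087 and 636.9 FPKM in hypoxic differentiation medium. Between these lay 74.8 and 65.9 FPKM in normoxic differentiation and 536.7 and 462.1 FPKM in hypoxic growth medium. Its rise in growth medium, 5.29 ± 0.25 (adjusted p 4.15e-05), ranked 8 of 12389 genes by fitted change.

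Ankrd37 was low at 21% oxygen, with 4.98 and 4.80 FPKM in growth and 7.32 and 4.97 FPKM in differentiation medium. In hypoxia it stood at 143.7 and 142.8 FPKM and at 172.3 and 126.2 FPKM in the same media. The 2 normoxic groups overlap and so do the 2 hypoxic groups, so its 8 values separate by oxygen and not by medium. The changes by hypoxia were 4.61 ± 0.19 in growth medium (adjusted p 2.74e-05) and 4.40 ± 0.19 in differentiation medium (adjusted p 3.98e-06).

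In differentiation medium all 9 genes were again higher at 2% oxygen, by 0.98 to 4.40 (median 2.81, against 0.15 over all tested genes), with adjusted p-values from 3.98e-06 to 0.000841. Here 65.2% of all tested genes were called, 37.5% higher and 27.7% lower. In this medium only the normoxic libraries had high myotube markers, so low oxygen and the lack of that state cannot be told apart. Libraries did not overlap between oxygen levels for all 9 genes, and for 48% of tested genes in this direction. A log2 change of at least 1 was reached by 8 of the 9, all but Ddit4, and 14.8% of tested genes were called higher with such a change. Rises past the threshold in both media, found for all 9, were found for 8.54% of tested genes. In hypoxic differentiation medium replicate A was above replicate B for 8 of the 9 genes, Ddit4 being the exception, whereas A was above B for 35.9% of all tested genes. In normoxic differentiation medium A was above B for all 9 (51.6% of all tested genes), and in normoxic and hypoxic growth medium for 2 and 6 of the 9. Replicate B is the library with the higher cell cycle markers, and the part this has in the levels of the 9 genes was not tested. Without replicate A the 9 changes ranged from 1.17 to 4.17, and without replicate B from 0.79 to 4.62, and all 9 passed the threshold either way.

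**Figure D2:**
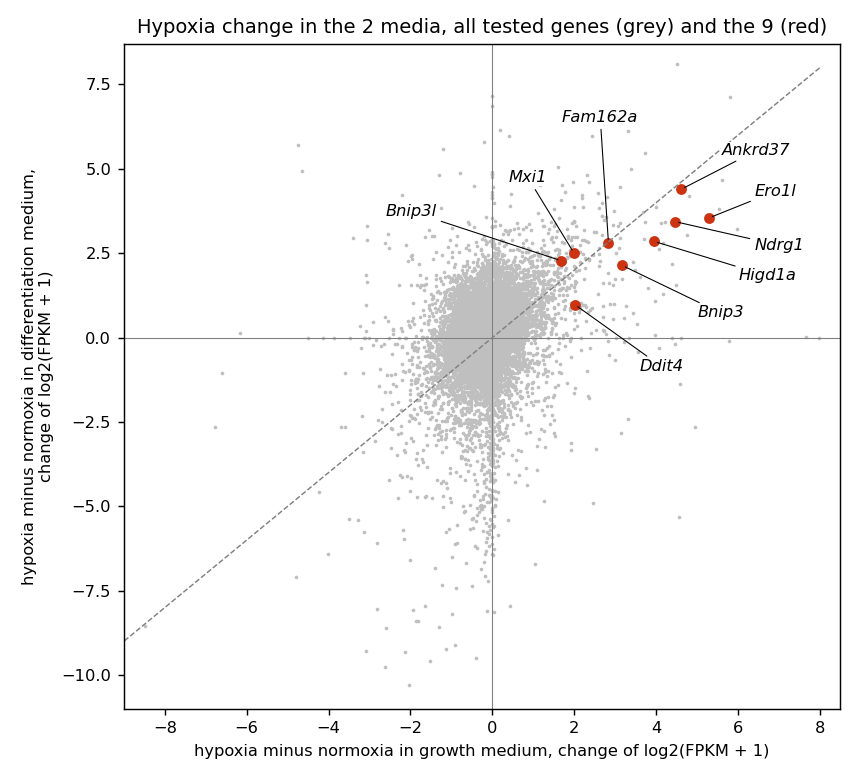
Fitted hypoxia change of log2(FPKM + 1) in growth medium (horizontal axis) and in differentiation medium (vertical axis) for all tested genes (grey) and the 9 genes (red), with equality as the dashed line. All 9 lie in the quadrant of higher values in both media, with Ero1l furthest right at 5.29 and Ddit4 lowest at 0.98.

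The next comparison asked whether differentiation medium alone moved these genes. At 21% oxygen 6 of the 9 rose and 1 fell, where 66.5% of tested genes were called, 25.5% higher and 41% lower. The libraries of the 6 that rose and the 1 that fell did not overlap between media. The same was so for 34.1% of tested genes in the higher and 52.9% in the lower direction. Over both directions the share of the 9 without overlap was not above that of all tested genes. Among calls, 66.7% of the 9 were higher and 11.1% lower. Ero1l had means of 11.8 ± 1.85 FPKM in growth and 70.4 ± 6.30 FPKM in differentiation medium (SD, n = 2). It rose by 2.49 ± 0.25 on the log2 scale (SE, limma adjusted p 0.000161). Higd1a rose by 2.15 ± 0.13 (adjusted p 1.73e-05) and Bnip3 by 1.34 ± 0.16 (adjusted p 0.000421). Ddit4 rose by 0.99 ± 0.14, Ndrg1 by 0.99 ± 0.21 and Fam162a by 0.68 ± 0.14. Mxi1 fell by 0.98 on the log2 scale (SE 0.15, adjusted p 0.00108), to a ratio of means of 0.475. The values of Ankrd37 (0.26 ± 0.19, adjusted p 0.267) and Bnip3l (0.02 ± 0.15, adjusted p 0.923) did not pass the threshold. The same change of medium raised the myotube markers, with 10 of 10 called higher, and lowered 9 of 12 cell cycle markers. Whether the 9 genes move with either programme was not tested. This comparison and that of hypoxia in growth medium share the normoxic growth libraries.

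At 2% oxygen the change of medium moved 4 of the 9 genes, with 40.9% of tested genes called, 23.3% higher and 17.6% lower. Libraries did not overlap between media for 6 of the 9. Of these, Bnip3, Bnip3l, Higd1a, Fam162a and Ero1l were higher in differentiation medium and Mxi1 was lower. The same was so for 40% of tested genes in the higher and 30.3% in the lower direction. Over both directions the share of the 9 without overlap was therefore not above that of all tested genes. Among calls, 33.3% of the 9 were higher and 11.1% lower. Higd1a rose by 1.06 ± 0.13 (adjusted p 0.0015), Fam162a by 0.65 ± 0.14 (adjusted p 0.0118) and Bnip3l by 0.61 ± 0.15 (adjusted p 0.0181). Mxi1 fell by 0.46 (SE 0.15, adjusted p 0.0428). Of these 4 only Higd1a passed under all 15 alternatives, while Bnip3l passed under 12, Fam162a under 11 and Mxi1 under 4. The log2 changes of the others were 0.74 ± 0.25 for Ero1l (adjusted p 0.0522), 0.31 ± 0.16 for Bnip3 (0.174), 0.04 ± 0.19 for Ankrd37 (0.889), -0.04 ± 0.21 for Ndrg1 (0.896) and -0.05 ± 0.14 for Ddit4 (0.826). A single library decided several of these. Without hypoxic differentiation replicate B, Ero1l was at 1.12 (adjusted p 0.00271) and Bnip3 at 0.50 (adjusted p 0.042), both past the threshold, and Mxi1 was at -0.25 (adjusted p 0.0828). Ndrg1 was at -0.37 without replicate A (adjusted p 0.0452) and at 0.28 without replicate B (adjusted p 0.104), so its direction turned with the library left out. Ankrd37 (-0.18 without A and 0.26 without B) and Ddit4 (0.15 and -0.24) turned likewise, with none of these values past the threshold.

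**Figure D3:**
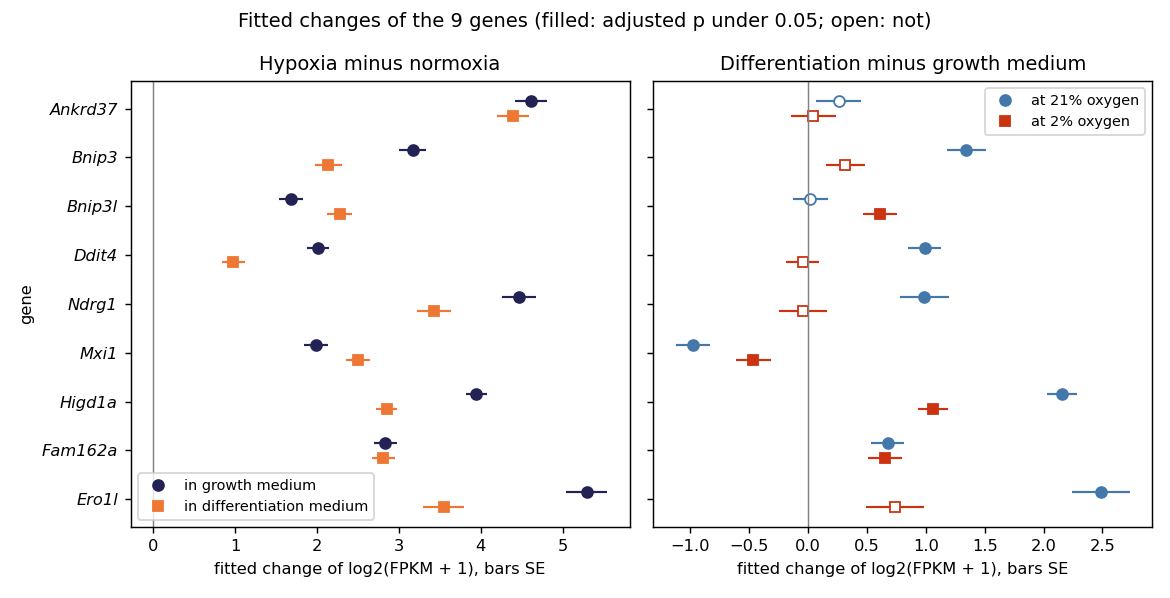
Fitted change of log2(FPKM + 1) with its SE for each gene, for hypoxia minus normoxia in each medium (left) and for differentiation minus growth medium at each oxygen level (right), with filled symbols where the adjusted p was under 0.05. All hypoxia changes are filled and lie above 0, and on the right Mxi1 is the gene with both changes below 0 and past the threshold (-0.98 and -0.46).

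The interaction tested whether the rise by hypoxia differed between media. It passed the threshold for 5 of the 9 genes, each with a smaller log2 rise in differentiation medium, a direction called for 18.7% of all tested genes (54.1% in either direction, 35.4% with a larger rise). The values were -1.75 ± 0.35 for Ero1l (adjusted p 0.00583), -1.09 ± 0.18 for Higd1a (0.00262), -1.04 ± 0.20 for Ddit4 (0.00458), -1.03 ± 0.23 for Bnip3 (0.00968) and -1.03 ± 0.29 for Ndrg1 (0.0236). Over all tested genes the interaction had a median of 0.27 as deposited. It was -0.01 once libraries were scaled by the median of ratios, and these 5 calls held either way. Negative interactions were called for 2317 tested genes as deposited, 3301 with that scaling and 2923 with upper-quartile scaling. The Ndrg1 call was lost when any 1 of 5 libraries was left out, both normoxic growth libraries, normoxic differentiation replicate A and both hypoxic growth libraries (adjusted p 0.0601 to 0.0928). All 5 genes were among the 6 that rose with differentiation medium at 21% oxygen. The interaction and that rise share libraries, so the overlap is not a separate result. In differentiation medium the oxygen levels also differed in myotube markers, with sums of 14098 and 14474 FPKM at 21% and 25.4 and 13.8 FPKM at 2%. The parts of oxygen and of this state in the interaction cannot be told apart.

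Fam162a, the other gene of those 6, had an interaction of -0.02 ± 0.20 (adjusted p 0.93) and Ankrd37 one of -0.22 ± 0.27 (adjusted p 0.522). Bnip3l (0.59 ± 0.21, adjusted p 0.0502) and Mxi1 (0.51 ± 0.21, adjusted p 0.0752) had positive values that did not pass. Bnip3l passed without hypoxic differentiation replicate B (0.79, adjusted p 0.00557), as did Mxi1 (0.73, adjusted p 0.00304). Bnip3l also passed with a pseudocount of 0.1 (adjusted p 0.0492), with robust moderation (0.0428) and with a replicate block (0.0276). The smaller log2 rises did not mean smaller gains in FPKM for every gene. The gain in mean FPKM by hypoxia was larger in differentiation than in growth medium for 6 of the 9 genes, among them Ero1l (791.4 against 487.6), Higd1a (361.5 against 186.7) and Bnip3 (542.0 against 497.2). It was smaller for Ddit4 (109.8 against 170.2), Ndrg1 (1665 against 1755) and Mxi1 (37.0 against 45.7). These gains were not tested.

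Across the 8 libraries the 36 pairs among the 9 genes had Pearson's r of log2(FPKM + 1) between 0.704 and 0.998, with a median of 0.950. The closest pair was Bnip3 and Ero1l and the least alike Mxi1 and Higd1a. Each gene was also compared with the mean of the other 8, with r from 0.830 for Mxi1 and 0.935 for Ddit4 to 0.996 for Ndrg1. These are descriptions over libraries that share 4 conditions. Outside the 9, the genes nearest to their mean profile were Sema3c, Gipr, P4ha2, Gpr35 and Pfkfb3, with r from 0.997 to 0.998. P4ha2, a collagen prolyl hydroxylase, had group means of 20.0 and 336.4 FPKM in growth medium and 36.1 and 540.3 FPKM in differentiation medium, in normoxia and hypoxia in that order. The single nearest genes, with r from 0.996 to 0.999, were Ndrg2 for Ankrd37, Epm2a for Bnip3, Tchh for Bnip3l and Hr for Ddit4. For the rest they were Car9 for Ndrg1, Klhl21 for Mxi1, Map2k1 for Higd1a, Ak4 for Fam162a and Adm for Ero1l. Some of these genes were near the floor. Group means of Tchh were 0.004 FPKM in normoxic growth and 2.01 FPKM in hypoxic differentiation medium. Sema3c was at 0.698 and 1.67 FPKM in normoxic growth and differentiation medium.

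The genes around the 9 in their pathways were read from lists compiled for each role. Counts of each list stand against 13.5% of all tested genes higher and 28% lower with hypoxia in growth medium, and 37.5% higher and 27.7% lower in differentiation medium. Among the HIF pathway genes, 3 of 8 tested rose and 2 fell with hypoxia in growth medium, and 4 rose and 4 fell in differentiation medium. Hif1a, the oxygen-sensitive subunit, fell by 0.63 in growth medium (adjusted p 0.0173) and fell by 0.63 in differentiation medium (adjusted p 0.0104). The call in growth medium was lost with both other scalings (adjusted p 0.0543 and 0.0785) and without either hypoxic growth library, and the change was -0.40 without normoxic growth replicate B. The call in differentiation medium was lost without normoxic differentiation replicate B. Arnt was at -0.20 (adjusted p 0.153) and -0.49 (adjusted p 0.00452). Egln1, which encodes the main oxygen-sensing hydroxylase, rose by 2.90 and 2.77, from 15.1 and 15.3 to 119.3 and 120.3 FPKM in growth medium and from 22.2 and 21.4 to 183.2 and 129.5 FPKM in differentiation medium. Egln3 rose by 3.26 and 0.93, and it stood at 25.8 and 27.4 FPKM in normoxic growth and 213.6 and 180.5 FPKM in normoxic differentiation medium. Vhl rose by 0.61 and 1.02. Egln2 was at -0.28 (adjusted p 0.105) and 0.66 (adjusted p 0.00251), and the asparaginyl hydroxylase gene Hif1an was at -0.11 (adjusted p 0.335) and -1.13 (past the threshold). Arnt2 was at -0.84 and -0.93, both past the threshold.

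**Figure D4:**
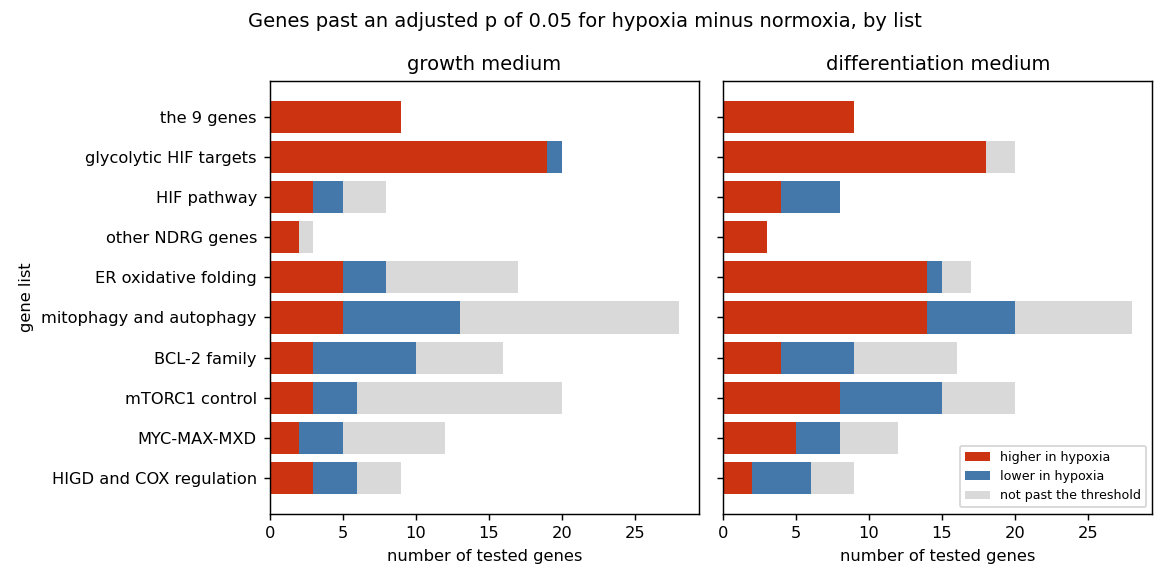
Number of tested genes in each list (horizontal axis, linear from 0) that were higher (red), lower (blue) or not past the threshold (grey) with hypoxia, in growth medium (left) and differentiation medium (right). The 9 genes (9 of 9 in both) and the glycolytic HIF targets (19 and 18 of 20) are higher almost throughout. Of the 3 other NDRG genes, 2 are higher in growth and 3 in differentiation medium, with none lower. ER oxidative folding is mainly higher in differentiation medium (14 of 17), and the remaining lists are mixed.

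Of the 28 tested mitophagy and autophagy genes other than Bnip3 and Bnip3l, 5 rose and 8 fell with hypoxia in growth medium, with a median change of -0.11. In differentiation medium 14 rose and 6 fell, with a median of 0.29 against 0.15 over all tested genes. The shares in growth medium, 17.9% higher and 28.6% lower, were near those of all tested genes. The LC3 genes Map1lc3a and Map1lc3b, whose products coat autophagosome membranes and bind BNIP3 and BNIP3L, moved in opposite directions in differentiation medium. Map1lc3b rose by 0.34 in growth medium (adjusted p 0.0383) and by 1.37 in differentiation medium (adjusted p 4.70e-05). Map1lc3a fell by 0.39 (adjusted p 0.0252) and fell by 1.91 (adjusted p 1.18e-05). Each of the calls in growth medium was lost under 8 of 15 alternatives, down to 0.21 for Map1lc3b without normoxic growth replicate B and to -0.22 for Map1lc3a with upper-quartile scaling. In differentiation medium Map1lc3a went from 201.7 and 214.4 to 54.3 and 55.2 FPKM, and Map1lc3b from 54.5 and 57.1 to 152.7 and 139.0 FPKM. Nipsnap1, a mitochondrial protein gene, was at -0.79 in growth and 1.60 in differentiation medium, both past the threshold, and Atg14, part of the autophagy lipid kinase complex, was at 0.37 (adjusted p 0.057) and 1.48 (adjusted p 8.66e-05).

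Bnip3 and Bnip3l are also relatives of the BCL-2 cell death family. Of 16 other family members tested, 3 rose and 7 fell in growth medium and 4 rose and 5 fell in differentiation medium. In differentiation medium this is 25% higher and 31.2% lower, against 37.5% and 27.7% of all tested genes. Bid fell by 1.78 and fell by 2.05, and Bcl2l11 (BIM) fell by 0.64 and fell by 1.12, in growth and differentiation medium in that order. Bax rose by 0.50 (adjusted p 0.0141) and 1.27 (adjusted p 0.000115), the former lost without normoxic growth replicate B or either hypoxic growth library. Bbc3 (PUMA) rose by 1.47 in growth medium (adjusted p 0.00192) and was at -0.45 in differentiation medium (adjusted p 0.0892), a difference that passed the interaction test (-1.92, adjusted p 0.00175).

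Among 20 genes of mTORC1 control other than Ddit4, 3 rose and 3 fell in growth medium and 8 rose and 7 fell in differentiation medium. The shares of 15% and 15%, and of 40% and 35%, lie near those of all tested genes except for fewer falls in growth medium. Trib3, an inhibitor of AKT, was at 1.75 and 1.66 FPKM in normoxic growth medium and 64.2 and 64.3 FPKM in hypoxic growth medium. It was at 119.8 and 119.8 FPKM in normoxic and 52.8 and 38.8 FPKM in hypoxic differentiation medium. So Trib3 rose with hypoxia in growth medium (4.59, adjusted p 8.79e-06) and fell in differentiation medium (-1.38, adjusted p 0.000156), with an interaction of -5.98 (adjusted p 3.11e-06). Sesn2, an mTORC1 inhibitor like Ddit4, rose by 2.84 in growth medium (adjusted p 0.000451) and was at -0.51 in differentiation medium (adjusted p 0.137), or -0.98 without hypoxic differentiation replicate B (adjusted p 0.000263). Deptor, which binds mTOR, was at -0.07 (adjusted p 0.793) and -1.97 (adjusted p 0.000123), and Eif4ebp1, the translation repressor that mTORC1 inactivates, was at 1.56 (adjusted p 0.000307) and 0.11 (adjusted p 0.506). With differentiation medium at 21% oxygen Trib3, Sesn2 and Eif4ebp1 rose by 5.48, 3.20 and 1.73, and Deptor was at -0.55 (adjusted p 0.0354). This Deptor call was lost with both other scalings (-0.28 and -0.42), with no filter and with a replicate block. The Deptor call was also lost without either normoxic differentiation library and without either hypoxic growth library. It was lost without normoxic growth replicate B too, where the change was -0.40. Over the list 8 genes rose and 9 fell in that comparison.

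Of 12 tested genes of the MYC, MAX and MXD network other than Mxi1, 2 rose and 3 fell in growth medium and 5 rose and 3 fell in differentiation medium. Mxd4, which like Mxi1 pairs with MAX against MYC, was at -0.40 in growth medium (adjusted p 0.00692) and 2.83 in differentiation medium (adjusted p 6.18e-07). The call in growth medium was lost with both other scalings and without hypoxic growth replicate B. Mxd4 levels in differentiation medium were 10.7 and 11.2 FPKM in normoxia and 88.2 and 79.5 FPKM in hypoxia. Myc was at 0.29 (adjusted p 0.235) and -2.05 (adjusted p 8.35e-05), and Mycl fell by 1.98 and fell by 2.32. Mxd3 was at -1.23 (adjusted p 0.18) and 2.45 (adjusted p 0.0151), with 4.69 and 27.9 FPKM in the hypoxic differentiation replicates. Its change in differentiation medium was 1.28 without replicate B there and lost its call without either normoxic differentiation library. Its change in growth medium passed the threshold without either hypoxic differentiation library (adjusted p 0.000689 and 0.000512). Mxd4, like Mxi1, had its lowest level in normoxic differentiation medium.

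The 3 other NDRG genes rose with hypoxia in differentiation medium, and 2 of them in growth medium. Ndrg2 had the largest rises of the 3, below those of Ndrg1 (4.46 and 3.44). It went from 32.8 and 33.3 to 111.7 and 116.0 FPKM in growth medium (1.75, adjusted p 5.98e-05). In differentiation medium it went from 40.0 and 35.4 to 125.6 and 111.8 FPKM (1.63, adjusted p 1.19e-05). Ndrg4 rose by 0.36 (adjusted p 0.0248) and 0.83 (adjusted p 0.000329), the former lost when any 1 of the 4 growth medium libraries was left out. Ndrg3 was at 0.05 (adjusted p 0.776) and 1.29 (adjusted p 0.000148). Among 9 tested genes related to Higd1a or to cytochrome oxidase regulation, 3 rose and 3 fell in growth medium and 2 rose and 4 fell in differentiation medium. Ndufa4, a cytochrome oxidase subunit gene, fell by 2.18 (adjusted p 0.000109) and fell by 0.98 (adjusted p 0.000797). Its paralog Ndufa4l2, a HIF target, rose by 1.75 (adjusted p 0.0208) and 1.69 (adjusted p 0.0145). It went from 0.246 and 0.253 FPKM to 3.20 and 3.19 FPKM in growth medium, where the change was 3.24 with a pseudocount of 0.1, and from 3.84 and 2.06 FPKM to 19.6 and 6.48 FPKM in differentiation medium. Its rise in differentiation medium was 0.96 without hypoxic differentiation replicate A and lost its call without normoxic differentiation replicate B, and its call in growth medium was lost when any 1 of the 4 growth medium libraries was left out. Chchd10 was at 0.66 and -4.07, both past the threshold, and Chchd4, the mitochondrial import oxidoreductase gene, was at 0.01 and -1.94, the latter past the threshold.

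Of 17 tested genes of oxidative folding and stress in the endoplasmic reticulum other than Ero1l, 5 rose and 3 fell in growth medium (median -0.02) and 14 rose and 1 fell in differentiation medium (median 1.09 against 0.15 over all tested genes). P4hb, the disulfide isomerase that ERO1L oxidises, was at 424.1 and 415.0 FPKM in normoxic and 1007 and 1023 FPKM in hypoxic growth medium. It was at 225.5 and 206.9 FPKM in normoxic and 1572 and 1341 FPKM in hypoxic differentiation medium, and rose by 1.27 (adjusted p 0.000257) and 2.74 (adjusted p 2.25e-06). Prdx4, which uses the peroxide that ERO1L makes, was at -0.16 (adjusted p 0.136) and 2.00 (adjusted p 2.46e-06), and Pdia4, another isomerase, was at -0.21 (adjusted p 0.0514) and 1.61 (adjusted p 3.95e-06). Ddit3 (CHOP), a stress transcription factor, rose by 2.78 in growth medium (adjusted p 0.000137) and was at 0.12 in differentiation medium (adjusted p 0.595). The interaction was negative for Ero1l (-1.75) and positive and past the threshold for P4hb (1.47), Prdx4 (2.16) and Pdia4 (1.82).

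The glycolytic HIF targets were compared as the list most alike in regulation. Of 20, 19 rose and 1 fell with hypoxia in growth medium (median 1.97), and 18 rose and none fell in differentiation medium (median 2.14). For the 9 genes these medians were 3.17 and 2.81, and the difference between the groups was not tested. The interaction passed the threshold in the positive direction for 7 and in the negative direction for 5 of the glycolytic genes, with a median of 0.11, against 0 and 5 of the 9 genes and a median of -1.03. Pfkfb3, an activator of glycolysis, was like the 5 genes with a smaller rise in differentiation medium, with 4.21 in growth, 3.43 in differentiation medium and an interaction of -0.77 (adjusted p 0.00431). Aldoc (2.35 and 4.61), Pgam1 (1.99 and 3.42) and Hk1 (1.96 and 3.40) had larger rises in differentiation medium, with interactions of 2.26, 1.44 and 1.45, each past the threshold. With differentiation medium at 21% oxygen 7 of the 20 glycolytic genes rose, among them Pfkfb3 by 1.36, and 5 fell, against 6 and 1 of the 9 genes.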

How the data were processed

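Total RNA of C2C12 cells was extracted with Trizol and made into strand-specific libraries, per the labels' protocols. The values deposited by the authors are FPKM per gene symbol (fragments per length of transcript and size of library). STAR 2.5.1b, Cufflinks 2.2.1 and the build mm9 are named in the submitters' processing notes. The annotation, the strand setting and the scaling are not given in the sources used here. Chromatin libraries of the series were not analysed here.

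Genes were kept where any group had a mean of 1 FPKM or more (12389 of 17914 above 0 in any library). A linear model over the 8 libraries was fitted to log2(FPKM + 1) with limma 3.58.1 (trended variance, R 4.3.3), with 4 residual and 2.61 prior degrees of freedom. The threshold was an adjusted p of 0.05 (two-sided, Benjamini-Hochberg over all tested genes). Because of the pseudocount, low genes changed by more than their fitted values. Ratios and gains are of mean FPKM. The design text calls the replicates biological, but no label says that they came from separate cultures. The p-values therefore measure the spread between these libraries, and part or all of it may be technical. The fit gave each gene a single spread shared by all groups, so its SE was the same in every comparison of a pair of groups. The wider spread of hypoxic differentiation medium was therefore not fitted separately. No value above 0 was identical between the replicates of a group. The fit was tested on simulated data with the same spread in every group and few changed genes. That test does not cover the larger spread of hypoxic differentiation medium or changes as widespread as those here.

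The members and gene lists were chosen with earlier results of these data known. Named were all 9 genes, every tested HIF pathway and NDRG gene, and up to 4 genes per other list. Those 4 passed the threshold in a hypoxia comparison, reached 5 FPKM in a group mean and had the largest changes. Cd68 was named after its values were seen. Likeness was Pearson's r over the 8 libraries. Alternatives were another pseudocount (0.1), no filter, median-of-ratios and upper-quartile scaling, only the libraries compared, a replicate block, robust moderation and leaving out each library. Promoter sequences and coordinates are RefSeq's for GRCm38.p6. No coordinates were taken from the deposited files.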

Additional observations from a re-analysis of the deposited data

Results flagged for a closer look

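For 5 of the 9 genes the rise with hypoxia differed between growth and differentiation medium by the test of the interaction term (limma, adjusted p under 0.05). This share of 55.6% lies near the 54.1% of all tested genes called in either direction. All 5 were negative, a direction called for 18.7% of all tested genes on the deposited scale. That was 2317 genes, against 3301 with median-of-ratios and 2923 with upper-quartile scaling. The differences in log2 change, differentiation minus growth medium, were -1.03 for Bnip3, -1.04 for Ddit4, -1.03 for Ndrg1, -1.09 for Higd1a and -1.75 for Ero1l. The calls for Bnip3, Ddit4, Higd1a and Ero1l held under all 14 alternatives, with a highest adjusted p of 0.0435, 0.0257, 0.0167 and 0.0312. The call for Ndrg1 held under 9 of 14. With 2 libraries per group no library could be tested as an outlier.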

How the results depend on the processing

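The 9 rises with hypoxia in each medium and the 7 calls for differentiation medium at 21% oxygen kept their count under all 15 alternatives, with a highest adjusted p (limma) of 0.00503 for hypoxia in growth and 0.0114 for hypoxia in differentiation medium. The count of the 9 genes changed by differentiation medium at 2% oxygen was 4, and it was 1 with upper-quartile scaling, 1 with only the libraries compared and 1 to 5 leaving out each library. The count of interactions was 5, and 4 to 7 leaving out each library. Where a library was left out, the lone sample of its group was assumed to vary like the others. Over all genes, 5073 were called for differentiation medium at 2% oxygen, 2867 with only the libraries compared and 2501 to 6529 leaving out each library. For hypoxia in growth medium 5135 were called, and 2997 to 6844 leaving out each library. Scaling moved the median of all genes and the share of calls that were higher. That share was 32.6%, 43.4% and 49.3% for hypoxia in growth medium on the deposited, median-of-ratios and upper-quartile scales. It was 57.5%, 46.5% and 54.8% for hypoxia in differentiation medium, 38.4%, 53.6% and 45.6% for differentiation medium at 21% oxygen, 56.9%, 53.1% and 48.3% at 2% oxygen, and 65.5%, 47.3% and 53.6% for the interaction.

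The sign turned in 48 of 3552 alternative values of the genes named, over 28 results, and the cause was not tested. Of these, 10 values belong to the 9 genes, all in results that had not passed the threshold (differentiation medium, or the interaction). In 1 case the reported value had passed (Ndrg4) and in 2 the turned value passed (Mxd3 and Sesn2). For differentiation medium at 2% oxygen Mxd3 was at -0.80 without hypoxic differentiation replicate B and 1.55 without replicate A, Sesn2 was at -0.62 without B and 0.32 without A, and for differentiation medium at 21% oxygen Ndrg4 was at 0.0048 with median-of-ratios scaling (-0.26 on the deposited scale). Among named genes that did not pass, Arnt, Atg14, Mxd3, Myc and Pdia4 passed for hypoxia in growth medium without either hypoxic differentiation library (adjusted p at most 0.0319), and Egln2 passed without normoxic growth replicate B (-0.44, adjusted p 0.0204). For hypoxia in differentiation medium Bbc3 passed without hypoxic differentiation replicate B (-0.71, adjusted p 0.0132) and with median-of-ratios and upper-quartile scaling (-0.65, 0.014 and -0.51, 0.035), and Sesn2 with median-of-ratios scaling (-0.72, 0.028). Ddit3 passed without replicate A (0.40, adjusted p 0.0295) and was at -0.16 without replicate B. No label says that a replicate letter marks a shared culture or day. Over all tested genes, correlations of A minus B between groups ran from -0.17 to 0.04 over 6 pairs of groups. With only A and B in each group, these values cannot settle whether the letters were paired. With a replicate block 4634 genes were called for hypoxia in growth medium, 7802 for hypoxia in differentiation medium, 7931 and 4453 for differentiation medium at 21% and 2% oxygen, and 6273 for the interaction. Among the 9 genes the block changed only the interaction of Bnip3l (adjusted p 0.0276), which made 6 interaction calls. FPKM keep no counts, so the counting error behind each value is unknown.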
